A study of Homo sapiens with 10 samples.

Results

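The m6A peaks described here are those that span at least 3 exons, taken as peaks listed with 3 or more blocks, where a block is a stretch of the peak that is not interrupted by an intron. They were set beside peaks with 1 block, which lie within a single exon. The lists came from m6A-seq of 2 lines, the human lung adenocarcinoma line A549 and A549/DDP, which was derived from it and resists cisplatin, with 2 libraries for each line and 1 list of called peaks for each library. RNA that was not pulled down was sequenced for the same lines as input, and 2 libraries for each line were used. There were 2 further A549 inputs, which entered only as an alternative. Of 78801 peaks over the 4 lists, 7353 had 3 or more blocks, 17747 had 2 and 53701 had 1. The counts with 3 or more blocks were 2407 of 26320 peaks in A549 replicate 1, 718 of 14576 in A549 replicate 2, 3369 of 27244 in replicate 1 of A549/DDP and 859 of 10661 in its replicate 2. Nothing in the labels says that replicates came from separate cultures, so p-values measure only the spread between these libraries, which may be technical.

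N6-methyladenosine is placed on messenger RNA while it is transcribed, by a methyltransferase complex with METTL3 and METTL14 at its core, and is read by proteins of the YTH family such as YTHDF1, which acts on translation. In most mammalian cells the mark is dense around stop codons, in the 3′ untranslated region and in long internal exons. Exon junction complexes keep the methyltransferase away from RNA close to splice junctions, so short internal exons that are flanked by junctions tend to carry little of it.

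The first transcribed bases of genes are the one stretch under these peaks for which sequence was read, and they are shown because peaks with 3 or more blocks lay on gene starts more often than peaks with 1 block did. GGAC is the letter sequence at which m6A is most often found. The windows below were under a peak with 3 or more blocks in at least 2 lists and hold GGAC within the first 50 transcribed bases. The capitals mark GGAC, each run is 30 bases of the transcript strand from 5′ to 3′, and sequences and positions are from RefSeq on GRCh38.p14. CETN2, which encodes a centrin, is at chrX:152830708-152830737 on the minus strand. SEPTIN9, a cytoskeletal GTPase, is at chr17:77405097-77405126 on the plus strand. These are the windows found in 3 lists. RPS19, a protein of the small ribosomal subunit, is at chr19:41860422-41860451, BSG, the cell surface protein basigin, is at chr19:572600-572629, and EIF3K, a subunit of a translation initiation factor, is at chr19:38619197-38619226, all on the plus strand. MLPH, a melanosome transport protein, is at chr2:237486411-237486440 and VDAC2, a channel of the outer mitochondrial membrane, is at chr10:75210796-75210825, both on the plus strand. For windows found in 2 lists, these are the genes with the highest input levels, with 1 window each, leaving out SEPTIN9, which is already shown.
CETN2: aacaaccggcagcGGACtcctttggctatg
SEPTIN9: tggtgctggatgcacagGGACgtggtcctg
RPS19: gagcggcaggcccGGACatgcccggtcagc
BSG: gttggaggttgtaGGACcggcgaggaatag
EIF3K: ttcccgtccttgaGGACgccgtgccgggtc
MLPH: ttggaattcggaaGGACaggcaggccgggc
VDAC2: agaGGACagggttgcggcgggcggaacggt

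The SEPTIN9 window was covered over all of its first 50 transcribed bases by a peak with 3 blocks in both A549 lists and in A549/DDP replicate 1. The summed block size of these peaks was 651 bases in each A549 list and 251 bases in A549/DDP replicate 1. The CETN2 window was covered over 21 bases in A549 replicate 1 and in both A549/DDP lists. The same 3-block peak of RPS19, 495 bases in summed size, and the same 3-block peak of BSG, 200 bases, were listed in A549 replicate 1 and A549/DDP replicate 2. Of the multi-exon peaks that touched a start window, the window each covered most held GGAC in its first 50 bases for 25.4% of 169 in A549 replicate 1, 28.1% of 57 in A549 replicate 2, and 20.1% of 189 and 26.9% of 52 in the A549/DDP lists. For the 1-block peaks that touched one it was 22.6%, 23.1%, 21.4% and 23.3%, in the same order of lists. Counted by window and not by peak, 18.9% of all 35116 start windows in the RefSeq table held GGAC on the transcript strand and 17.6% on the other strand. The share was higher for multi-exon peaks than for 1-block peaks in 3 of 4 lists. For peaks with 2 blocks it was 24.1%, 27.5%, 24.0% and 24.8%, above that of 1-block peaks in every list. These differences were not tested, and a match says only that the letters are there.

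The epithelial keratins KRT8 and KRT18 were high in the input libraries of both lines. KRT8 stood at 1307 and 3254 FPKM (fragments per kilobase of transcript, scaled to library size) in A549 and at 6467 and 6555 in A549/DDP, and KRT18 at 1026 and 1604 against 3084 and 3132. Other epithelial markers were lower and did not all go the same way. KRT19 was at 21.5 and 39.8 FPKM in A549 and at 6.08 and 0 in A549/DDP, CDH1 at 18.6 and 25.1 against 149 and 75.8, and EPCAM between 1.58 and 4.32 in these 4 libraries. CDKN2A, which is deleted in A549, was at 0.18 and 0 FPKM in A549 and at 0.68 and 0.05 in A549/DDP. The surfactant genes SFTPC and SFTPA1 were listed at 0 in these 4 libraries, and all 4 markers of the alveolar type 2 cell summed to 0.36 FPKM or less. PTPRC, a marker of leukocytes, and CD3E, a marker of T cells, were at 0.04 FPKM or less. CD68, the most abundant leukocyte marker of the list, was between 84.5 and 100.4 in all 4 libraries. CD68 therefore stood beside at most 0.04 FPKM of PTPRC. The summed fibroblast markers were between 1.66 and 11.45 FPKM. In bulk RNA, fewer cells of a type and less RNA per cell cannot be told apart.

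Peaks with 3 or more blocks made up a small share of each list, and that share differed as much within a line as between lines. It was 9.15% of peaks in A549 replicate 1 (95% Wilson interval 8.80% to 9.5%) and 4.93% in A549 replicate 2 (4.59% to 5.29%). In A549/DDP replicate 1 it was 12.4% (12% to 12.8%), and in A549/DDP replicate 2 it was 8.06% (7.56% to 8.59%). These intervals cover counting error only. The mean was 7.04% ± 2.98 (SD, n = 2) for A549 and 10.2% ± 3.05 (SD, n = 2) for A549/DDP. The lines overlapped, since A549 replicate 1 was above A549/DDP replicate 2. The difference of 3.18 percentage points gave p = 0.667 in a two-sided exact permutation test over the lists, and 2 lists against 2 cannot go below 0.33. It was 1.07 points without A549 replicate 2 and 1.02 without A549/DDP replicate 1, and 5.29 and 5.33 without the other list of A549 and of A549/DDP. In both lines the longer list, replicate 1, had the higher share. Measured in bases instead of peaks, the multi-exon peaks held 12.9% and 6.82% of all listed bases in A549 and 17.4% and 11.1% in A549/DDP.

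**Figure D1:**
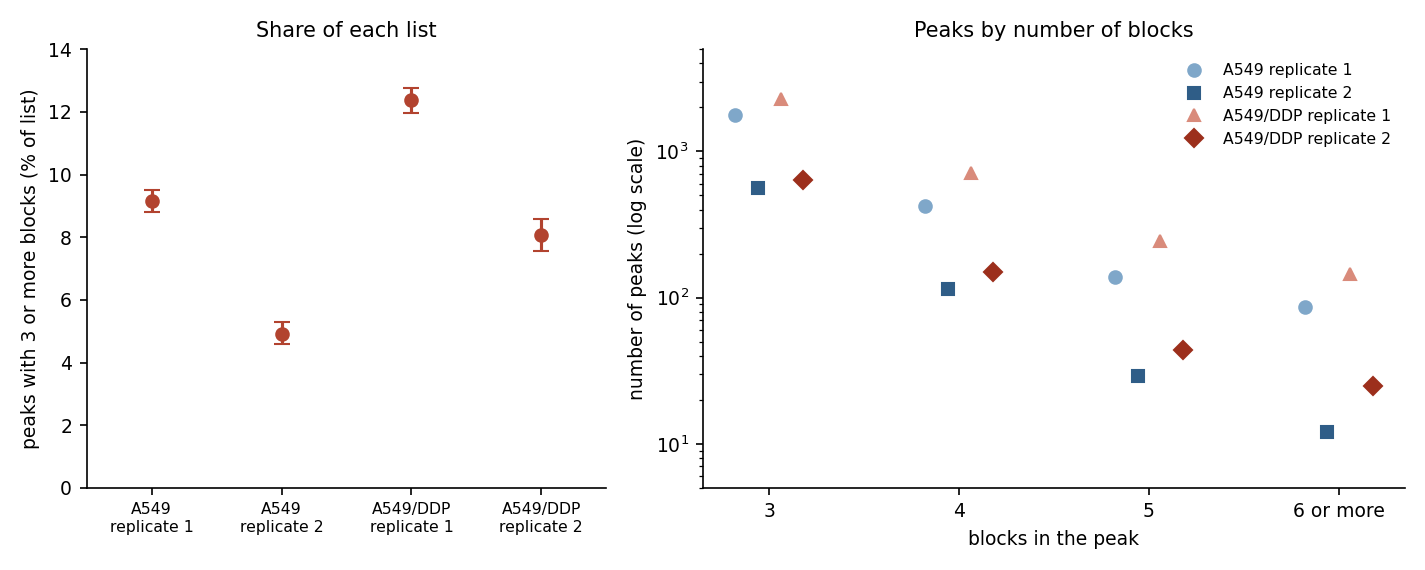
Share of peaks with 3 or more blocks in each m6A-seq list, in percent with 95% Wilson intervals (left), and the number of peaks with 3, 4, 5 and 6 or more blocks in each list on a log scale (right). The share runs from 4.93% in A549 replicate 2 to 12.4% in A549/DDP replicate 1, and in every list most of these peaks have 3 blocks.

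Most of the multi-exon peaks were at the lower limit of the definition. Exactly 3 blocks were found in 73.2% and 78.3% of them in A549 and in 67.4% and 74.6% in A549/DDP, and 6 or more blocks in 86, 12, 146 and 25 peaks. The inner blocks, which lie between 2 junctions, had medians of 107, 106, 103 and 102 bases. Blocks at the ends of the peaks were shorter, with medians of 61.0, 63.5, 64.0 and 57.0 bases, and 8.06% to 9.14% of them were under 10 bases. The gaps between blocks had medians of 949, 892, 1342 and 1110 bases, and only 22, 10, 34 and 10 gaps in the lists were under 30 bases. In a list of 13 intronless genes, which cannot hold a peak over 3 exons, 13, 13, 12 and 12 had a peak. As their lack of introns requires, 0 had one with 3 or more blocks, which says nothing of other genes. Outside that list, MALAT1 had 3, 5, 4 and 3 blocks at chr11:65499208-65500921 on the plus strand, within a span of 1714 bases. Blocks were not compared with an exon annotation.

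The peak with the most blocks in each list lay in COL27A1, SCAF1, SHTN1 and IK. In A549 replicate 1 it was a peak of 14 blocks in COL27A1, a fibrillar collagen gene, at chr9:114275692-114300075 on the plus strand of hg38. Its blocks summed to 950 bases over a span of 24384 bases, and its 12 inner blocks were 54 to 108 bases long. A549/DDP replicate 1 covered 47.5% of it with a peak of 8 blocks, whereas both replicate 2 lists had no peak there. In A549/DDP replicate 1 the longest chain was 13 blocks in SHTN1, which encodes the neuronal polarity protein shootin, at chr10:116901817-116960322 on the minus strand. It ran over 58506 bases of the genome with 1541 bases in blocks, and neither A549 list had a peak on it, while A549/DDP replicate 2 covered 22.9%. In A549/DDP replicate 2 it was a peak of 10 blocks in IK, which encodes a spliceosome protein, at chr5:140648505-140657633 on the plus strand. All other lists had peaks with 3 or more blocks on IK, with up to 3 in A549 replicate 1, 5 in A549 replicate 2 and 6 in A549/DDP replicate 1, and they covered 31.8%, 63.3% and 63.3% of its bases. In A549 replicate 2 it was a peak of 7 blocks in SCAF1, a splicing-associated gene, at chr19:49646549-49658242 on the plus strand. This peak differed from the others, since 2838 of its 3498 bases lay in a single inner block.

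The multi-exon peaks held more bases than the 1-block peaks in every list. The median summed block size of peaks with 3 or more blocks was 349 bases in A549 replicate 1, 347 in A549 replicate 2, and 339 and 298 in the A549/DDP lists. For 1-block peaks it was 200 bases in both replicate 1 lists, 1 base more in A549 replicate 2 and 197 in A549/DDP replicate 2. The differences were 149, 146, 139 and 101 bases, with the multi-exon peaks larger in 4 of 4 lists. Block number and size are read from the same peak, so no test was made. The medians of peaks with 2 blocks were within 1 base of those of 1-block peaks in every list. Just inside and outside the definition, peaks with exactly 3 blocks had medians of 299, 300, 294 and 250 bases. Per block, the multi-exon peaks were thin, with a mean of 130, 130, 109 and 97.1 bases in each block beside 297, 299, 257 and 231 in the single block of 1-block peaks. The median span on the genome, introns included, was 3649, 3376, 4809 and 3926 bases. The largest summed size, 4599 bases, was in A549 replicate 2 and belonged to PLEC, the giant linker plectin, with 3 blocks. Between the lines, the median size of multi-exon peaks was 348 ± 1.41 bases in A549 and 318 ± 29.0 in A549/DDP (SD, n = 2), with an exact permutation p of 0.33, the smallest possible.

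**Figure D2:**
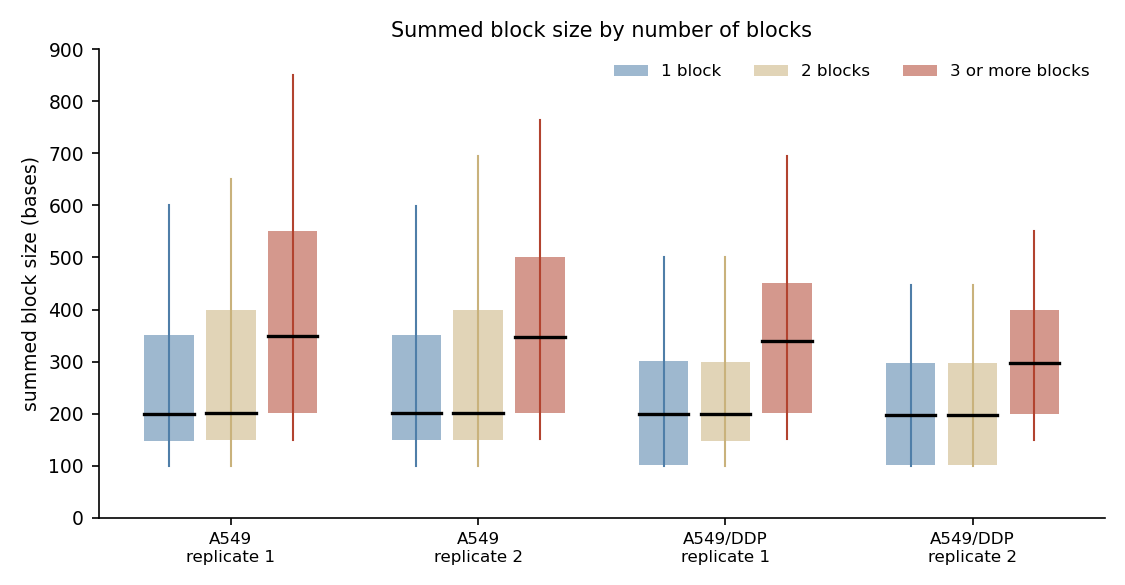
Summed block size in bases of peaks with 1, 2 and 3 or more blocks in each list. Black lines are medians, boxes run from the lower to the upper quartile and thin lines from the 10th to the 90th percentile, and the medians of peaks with 3 or more blocks, 298 to 349 bases, stand above those of both other classes.

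The score that comes with each peak, for which the sources used give no meaning, was almost the same in the 2 classes. Scores at or below 1e-05 were given to 50.4% of multi-exon peaks and 53.5% of 1-block peaks in A549 replicate 1, and to 33.6% and 34.6% in A549 replicate 2. In A549/DDP they were given to 56.6% and 58.5% in replicate 1 and to 47.6% and 48.0% in replicate 2. The differences were -3.16, -1.03, -1.89 and -0.365 percentage points, in the same direction in 4 of 4 lists and small beside the spread of 33.6% to 56.6% between lists. It did not hold at a stricter threshold of 1e-10, where the shares were 1.20%, 2.09%, 1.10% and 3.61% for multi-exon peaks and 1.21%, 1.46%, 1.08% and 1.26% for 1-block peaks. The mean difference of -1.61 points was 0.746 at that threshold and 0.357 when each gene was given its longest peak alone. Scores were often shared by peaks of the same gene, for 71.1%, 54.9%, 70.9% and 51.0% of multi-exon peaks. In peaks of 400 to under 700 bases the share past 1e-05 was higher for multi-exon peaks in all 4 lists, by 2.90, 0.552, 3.0 and 11.2 percentage points, the only one of the 5 size classes where this held, and it was picked out after its values were seen.

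Recurrence was measured as the share of peaks that overlapped a peak of another list by 1 base or more of the same strand. Multi-exon peaks of A549 recurred more often than 1-block peaks and those of A549/DDP did not. Peaks with 3 or more blocks were met in all 3 other lists for 20.8% in A549 replicate 1 and 41.6% in A549 replicate 2, beside 14.6% and 27.8% of 1-block peaks. In A549/DDP they were met in all 3 for 16.4% in replicate 1 and 37.0% in replicate 2, beside 16.7% and 48.5%. Peaks with 2 blocks shared this pattern, with 15.4% and 31.0% in A549 and 13.6% and 34.8% in A549/DDP, so it was not particular to peaks over 3 or more exons. Peaks met in no other list were 27.4%, 5.85%, 39.9% and 16.5% of the multi-exon peaks and 35.7%, 8.70%, 35.4% and 11.2% of the 1-block peaks. The replicate 2 lists are shorter, and peaks of a short list have longer lists to be found in, so these shares are compared within a list only. Between replicates of a line the 2 classes were close. The replicate of the same line met 43.6% of multi-exon and 42.3% of 1-block peaks of A549 replicate 1, 84.3% and 82.4% of A549 replicate 2, 30.7% and 27.1% of A549/DDP replicate 1, and 76.1% and 76.7% of A549/DDP replicate 2.

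Since longer peaks are met more easily, recurrence was also read within classes of summed size. Within 250 to under 400 bases, multi-exon peaks of A549/DDP were met in all 3 other lists for 11.7% in replicate 1 and 37.1% in replicate 2, beside 21.2% and 64.5% of 1-block peaks. In this class the values of A549 were 13.7% and 36.5% beside 17.4% and 32.1%. Multi-exon peaks of both A549/DDP lists were below 1-block peaks in each of the 5 size classes. Those of A549 replicate 2 were above in each, and those of A549 replicate 1 differed by -3.68 to 3.04 percentage points. When both classes were weighted to the sizes of the multi-exon peaks, the differences were -0.672, 6.40, -9.20 and -22.6 percentage points. Among peaks with a score at or below 1e-05 in all lists the differences were 0.987, 6.57, 0.349 and -0.150, and with an overlap of at least 50% of the peak they were 0.710, 6.06, -4.29 and -17.7. The difference of A549/DDP replicate 1, -0.393, became 1.13 without A549 replicate 2, -0.288 without A549 replicate 1 and -7.81 without A549/DDP replicate 2. The contrast between the lines was not tested. Peaks with 6 or more blocks recurred often in A549. In A549 replicate 2 all 12 peaks with 6 or more blocks were met in all 3 other lists, as were 41.9% of 86 in A549 replicate 1. In A549/DDP the values were 30.8% of 146 and 32.0% of 25.

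**Figure D3:**
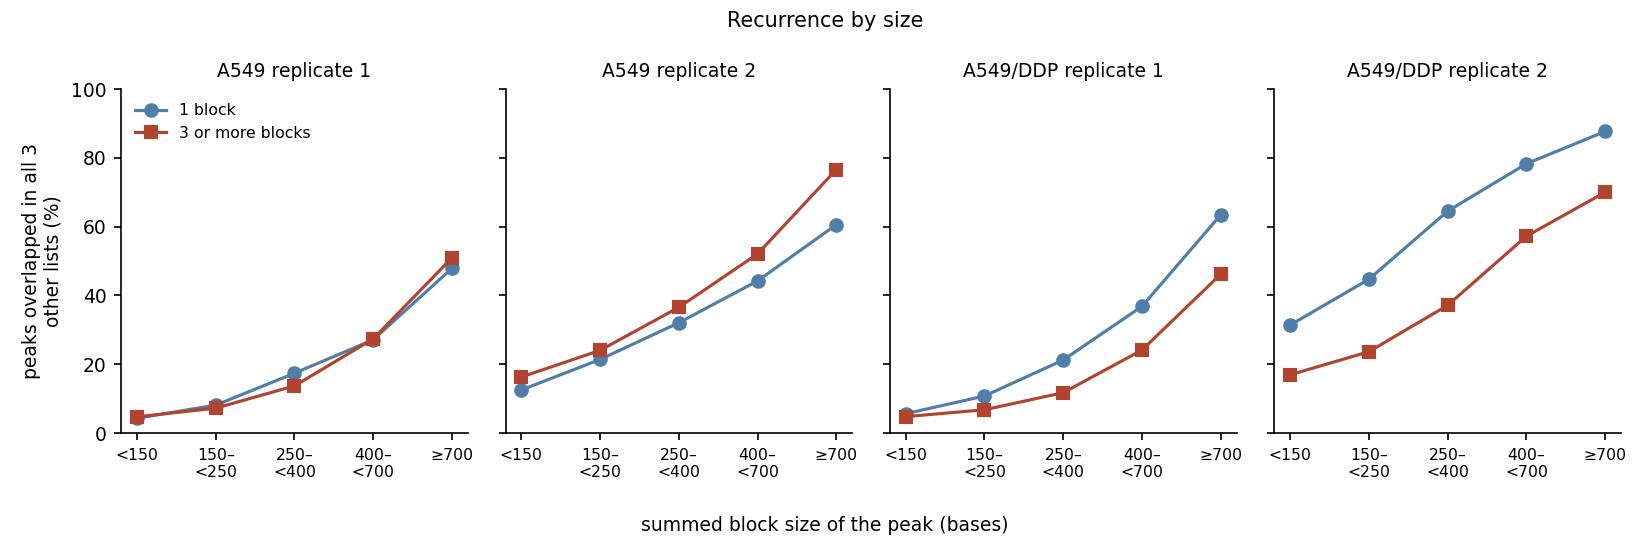
Share of peaks, in percent, that shared at least 1 base with a peak in each of the 3 other lists, by class of summed block size, for peaks with 1 block (circles) and 3 or more blocks (squares) of each list. In both A549/DDP lists the squares lie below the circles in every class, and in A549 replicate 2 they lie above.

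The same stretch was often not called as a multi-exon peak again. Of the multi-exon peaks of A549 replicate 2 that met a peak in A549 replicate 1, 69.9% met one with 3 or more blocks, and of those of A549 replicate 1 that met one in A549 replicate 2, 40.3% did. In A549/DDP the values were 67.7% from replicate 2 to replicate 1 and 44.5% from replicate 1 to replicate 2. Junctions inside the multi-exon peaks, the exact intron gaps between their blocks, were 13674 over the lists together, and 187 of them were in all 4 lists. The A549 lists shared 873 junctions, 15.1% of those of replicate 1 and 53.5% of those of replicate 2. The A549/DDP lists shared 904, which was 10.8% and 44.5%. Across the lines, the replicate 1 lists shared 1787, or 31.0% of A549 and 21.4% of A549/DDP. The pair of longest lists, one of each line, thus shared more junctions than either pair of replicates.

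When overlapping peaks with 3 or more blocks were merged, the 4 lists gave 5216 regions. Of these, 3854 (73.9%) were in 1 list, 957 in 2, 296 in 3 and 109 (2.09%) in all 4. Regions in both A549 lists and neither A549/DDP list were 117, those in both A549/DDP lists alone were 203, and those in both replicate 1 lists alone were 476. The pair of longest lists again shared the most. Regions were not merged for all peaks or for 1-block peaks, so these counts have no baseline. The 109 regions in all 4 lists had a median summed size of 425 bases and a median span of 5696 bases. In 49 of them the median block number was 3, in 39 it was the same in all 4 lists, and in 11 the score was at or below 1e-05 in all 4.

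The 8 regions in all 4 lists with the highest median block number were in 6 genes with a symbol and 2 without. Regions with equal medians were ordered by median summed size, so that of 4 regions at a median of 5.5 blocks those of INCENP and RBM10 are among the 8 and those of PSENEN and IK are not. The first was listed under ENSG00000261915, which has no symbol, and overlapped the RefSeq span of GPS2, a subunit of a corepressor complex. It was at chr17:7312710-7315421 on the minus strand, with 8 and 7 blocks in A549 and 11 and 5 in A549/DDP. Its summed size was 743, 693, 1188 and 396 bases. HDGFL2, a chromatin reader of the HDGF family, had 8, 4, 10 and 4 blocks at chr19:4475449-4497040 on the plus strand. PDZD11, a small PDZ domain protein, had 6, 3, 6 and 6 blocks at chrX:70286645-70289426 on the minus strand. Its A549/DDP peaks summed to 945 and 896 bases with scores of 2.4e-07 and 1.8e-09, and its A549 peaks to 548 and 250 bases with scores of 0.00056 and 0.00012. For PDZD11 the A549/DDP peaks were thus both larger and lower in score. GOLIM4, a Golgi membrane protein, had 3, 6, 6 and 7 blocks at chr3:168010176-168036993 on the minus strand. CAPZB, which caps actin filaments, was the most uniform, with 6, 6, 6 and 5 blocks and 499, 548, 499 and 400 bases at chr1:19374412-19420124 on the minus strand. INCENP, a scaffold of the chromosomal passenger complex, had 5, 6, 8 and 4 blocks at chr11:62145034-62151970 on the plus strand. RBM10, a splicing regulator, had 6, 5, 9 and 3 blocks at chrX:47181278-47186378 on the plus strand. The other of the 8 without a symbol was ENSG00000258674, at chr19:19516277-19529476 on the plus strand, where the region overlapped the RefSeq spans of NDUFA13 and YJEFN3. It had 6, 3, 6 and 6 blocks, and the sum was 500 bases in the 3 lists with 6 blocks. Its input RNA was low, with 1.15 and 2.97 FPKM in A549 and 0.55 and 0 in A549/DDP. ENSG00000261915 was at 0 FPKM in both A549 inputs and at 2.25 and 2.28 in A549/DDP. Both IDs share their ground with named genes, so the gene of these 2 regions is uncertain.

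**Figure D4:**
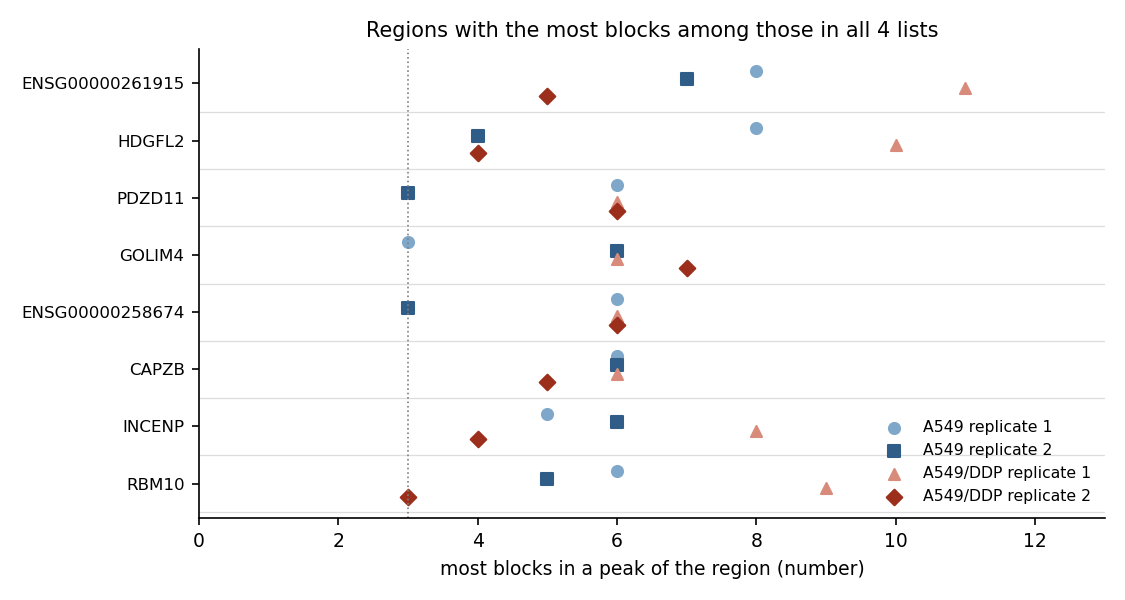
Number of blocks, in each list, of the 8 regions with the highest median block number among the 109 regions with a peak of 3 or more blocks in all 4 lists, with ties ordered by median summed size. Points are the peak with the most blocks in each list and the dotted line marks 3 blocks. ENSG00000261915 reaches 11 blocks, and CAPZB has the narrowest range, from 5 to 6.

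Genes with a multi-exon peak were 1911 and 643 in the A549 lists and 2541 and 741 in the A549/DDP lists, or 25.2%, 12.2%, 36.3% and 19.4% of genes with any peak. Most of them also had a 1-block peak in the same list, in 79.0%, 71.7%, 78.0% and 69.0% of cases. The share of all genes with a peak that had a 1-block peak was not counted, so these values have no baseline over genes. Of all peaks, 67.7%, 75.9%, 63.4% and 70.8% had 1 block. Over the lists together 3820 genes had a multi-exon peak, of which 2406 had it in 1 list, 936 in 2, 354 in 3 and 124 in all 4. Of the 2406 genes, 468 had some other peak in all 4 lists. The replicates shared 427 genes in A549, which was 22.3% of replicate 1 and 66.4% of replicate 2, and 470 in A549/DDP, which was 18.5% and 63.4%. The replicate 1 lists of the 2 lines shared more, 929 genes or 48.6% of A549 and 36.6% of A549/DDP, and 498 genes had a multi-exon peak in both of these and in neither replicate 2 list. Genes with a multi-exon peak in both lists of one line and neither list of the other were 104 for A549 and 191 for A549/DDP. Of the 104, 74 had a peak of 1 or 2 blocks in an A549/DDP list, and of the 191, 116 had one in an A549 list. The counts of 104 and 191 were not set beside those of all genes with a peak, so they do not say whether multi-exon genes differ from these.

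The 5 genes with the highest input level among the 104 A549 genes were JPT1, GTF2F1, OS9, SF3A1 and MPRIP. JPT1, a microtubule-associated protein, had a peak of 3 blocks in each A549 list, 248 and 298 bases from the same start, a peak of 2 blocks in A549/DDP replicate 1 and no peak in A549/DDP replicate 2. GTF2F1, a subunit of general transcription factor TFIIF, had 4 and 3 blocks in A549 with 1344 and 846 bases, and 2 blocks in each A549/DDP list. OS9, which delivers misfolded proteins to degradation in the endoplasmic reticulum, had 3 and 4 blocks in A549, a single block in A549/DDP replicate 1 and no peak in A549/DDP replicate 2. SF3A1, a spliceosome protein, and MPRIP, which binds myosin phosphatase, had 3 blocks in both A549 lists and 2 in both A549/DDP lists. The A549 peaks of SF3A1 with the most blocks were at chr22:30342860-30346318 and chr22:30337034-30338882, which do not overlap, so these peaks were not at the same place. The input of OS9 was higher in A549/DDP (log2 change 0.79, SE 0.17, edgeR adjusted p = 0.0298) and that of JPT1 lower (-1.30, SE 0.27, edgeR adjusted p = 0.0275), and neither passed when an A549/DDP input was left out.

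The 5 most abundant of the 191 A549/DDP genes were EEF1G, HNRNPA1, RPL12, NCL and RPL37. EEF1G, a subunit of the elongation factor that delivers tRNA, had 3 and 5 blocks in A549/DDP with 149 and 445 bases, no peak in A549 replicate 1 and 2 blocks in A549 replicate 2. HNRNPA1, a splicing repressor, had a 3-block peak of 151 bases at the same position, chr12:54280792-54281216 on the plus strand, in both A549/DDP lists. NCL, which encodes nucleolin, had the same 3-block peak of 648 bases, at chr2:231460810-231463104 on the minus strand, in both A549/DDP lists, with scores of 5.6e-08 and 1.2e-07, and no peak of any kind in either A549 list. The ribosomal protein gene RPL12 had a 3-block peak of 295 bases in both A549/DDP lists and at most 2 blocks in A549, and RPL37 had one of 387 bases in both and 2 blocks in both A549 lists. None of these 5 genes passed the test of input RNA, with log2 changes between -0.20 and 0.36 and edgeR adjusted p of at least 0.228. NCL was at 1156 and 1142 FPKM in A549 and at 1082 and 1127 in A549/DDP, with both lines at a like level.

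The gene lists were read by how many of their genes with a peak had a multi-exon one, beside 25.2% and 12.2% of all genes with a peak in A549 and 36.3% and 19.4% in A549/DDP. The lists are small selections and none of these counts was tested. Of 20 cytosolic aminoacyl-tRNA synthetases, which load tRNAs with amino acids, 5 had a peak in each A549 list, and 1 and 0 of them had one with 3 or more blocks. In A549/DDP 17 and 6 had a peak and 12 and 4 had a multi-exon one. FARSA and FARSB, the subunits of the phenylalanine enzyme, were the only members with 3 blocks in both A549/DDP lists, and FARSA had 2 blocks in both A549 lists. RARS1 had 7 blocks and 943 bases in A549/DDP replicate 1, and QARS1 had 5 blocks. The peak list with 12 was the longest one. Input RNA of the group was lower in A549/DDP, with 11 of 20 genes lower and 1 higher by edgeR, beside 8.0% and 6.85% of all genes tested, and a median log2 change of -0.95 beside -0.0019 over all genes. With the second, shallower pair of A549 inputs the group's median of -0.10 was again below that over all genes, 0.79, while 2 of its genes were called lower and 7 higher, beside 10.0% and 17.2% of all genes tested with that pair. Without A549/DDP replicate 2, 6 were lower and 0 higher, beside 6.21% and 4.92%. AARS1 was at 826 and 749 FPKM in A549 and at 136 and 119 in A549/DDP (log2 change -2.26, SE 0.16, edgeR adjusted p = 0.00231), while with the second pair its log2 change was -0.57 and did not pass. CARS1 was at 170 and 184 against 25.2 and 35.0, and had 4 blocks in A549/DDP replicate 1 and no peak in A549. Frequent input calls were not particular to the synthetases. Among lists described below, 9 of 18 giant cytoskeletal linkers were lower and 2 higher, and 6 of 18 m6A genes lower and 0 higher. Of 20 NRF2 genes 12 were higher and 2 lower, and of 17 glycolysis enzymes 9 and 0. With the second pair, 0 of 17 linkers tested were lower and 9 higher.

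Of 25 matrix genes, namely collagen and laminin chains with AGRN, HSPG2 and FN1, 8 of 11 with a peak had a multi-exon one in A549 replicate 1, 1 of 6 in A549 replicate 2, 5 of 7 in A549/DDP replicate 1 and 5 of 9 in A549/DDP replicate 2. AGRN and HSPG2 are among the 8. COL6A1 had 11 blocks with 500 bases in A549 replicate 1 and 10 blocks with 450 bases in A549/DDP replicate 2, and no peak in either other list. COL5A1 was listed in the same pattern, with 8 and 5 blocks. COL18A1, the collagen that yields endostatin, was the only member with a multi-exon peak in all 4 lists, with 4 blocks each time. Its peak at chr21:45468294-45476409 on the plus strand was identical in both A549 lists with 699 bases, shifted by 50 bases with the same sum in A549/DDP replicate 2, and shorter, with 300 bases, in A549/DDP replicate 1. Of 18 giant cytoskeletal linkers, 5 of 7, 2 of 7, 5 of 5 and 1 of 4 genes with a peak had a multi-exon one. MYH9, the heavy chain of non-muscle myosin, had 5, 5, 0 and 6 blocks, and TLN1, the integrin linker talin, had 6 in A549 replicate 1. Of 11 integrin chains, 1 of 5, 1 of 3, 0 of 4 and 0 of 3 did, with ITGA5 at 3 blocks in A549 replicate 1 and ITGA3 at 3 blocks and 1593 bases in A549 replicate 2.

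Nuclear pore proteins had a multi-exon peak in 0 of 8 and 0 of 8 genes with a peak in A549 and in 7 of 11 and 1 of 4 in A549/DDP. TPR, which forms the nuclear basket, had 6 blocks in A549/DDP replicate 1, where NUP93 and NUP88 had 4, and RANBP2 had 3 in both A549/DDP lists. All 7 genes had their multi-exon peak in A549/DDP replicate 1. Input RNA of the whole list was lower in A549/DDP for 2 of 21 genes and higher for 0, beside 8.0% and 6.85% of all genes tested, with a median log2 change of -0.16 beside -0.0019 over all genes. Against the second A549 pair the group's median was 0.98, beside 0.79 over all genes, with 1 lower and 8 higher, where 10.0% and 17.2% of all genes were called. In 31 proteasome subunits the counts were 1 of 6, 3 of 9, 7 of 20 and 1 of 8, with the share in A549/DDP replicate 1, 35%, close to the 36.3% of all genes with a peak, and PSMB2 had the most blocks, 5 in A549/DDP replicate 1. The list of 24 splicing factors and RNA helicases, which does not hold HNRNPA1, SF3A1 or RBM10, had 1 of 4, 1 of 5, 4 of 12 and 1 of 12, and SRSF11 had one in both A549/DDP lists. The list of 18 chaperones had 1 of 4, 0 of 1, 1 of 4 and 0 of 2, namely DNAJB1 and CCT3. The list of 55 cytosolic ribosomal proteins, which does not hold RPL12, had 1 of 19, 3 of 24, 3 of 30 and 8 of 35. These shares were below those of all genes with a peak in both replicate 1 lists (5.26% beside 25.2%, and 10% beside 36.3%) and at or above them in both replicate 2 lists (12.5% beside 12.2%, and 22.9% beside 19.4%). RPL35 and RPS19 had one in 3 lists each. The 17 glycolysis enzymes had 1 of 2, 2 of 4, 2 of 6 and 3 of 5. ENO1, which encodes enolase, had a 3-block peak on the minus strand in all 4 lists, at chr1:8874898-8878705 with 199 bases in the replicate 1 lists and at chr1:8874849-8878705 with 248 bases in the replicate 2 lists, and in A549/DDP only a further one at chr1:8862904-8863987, with 3 blocks in replicate 1 and a longer form of 4 blocks in replicate 2. Its input was at 1718 and 1462 FPKM in A549 and at 1984 and 1879 in A549/DDP. Of 20 NRF2 regulators and targets, genes of the oxidative stress response, 1 of 7, 2 of 9, 4 of 13 and 4 of 11 genes with a peak had a multi-exon one, again below the share of all genes in the replicate 1 lists and above it in the replicate 2 lists.

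Among 18 genes of the m6A machinery, 5 of 14 and 2 of 13 with a peak had a multi-exon one in A549, and 5 of 13 and 0 of 10 in A549/DDP, beside 25.2%, 12.2%, 36.3% and 19.4% of all genes with a peak. ZC3H13, a subunit of the methyltransferase complex with an exceptionally long exon, had 3, 3, 6 and 2 blocks, and the peak in A549/DDP replicate 1 summed to 2244 bases. YTHDC1, the nuclear reader, had 3, 3, 3 and 2 blocks. Its input fell to 31 and 28.5 FPKM in A549/DDP from 188 and 130 in A549 (log2 change -2.26, SE 0.23, edgeR adjusted p = 0.00434). METTL3 and METTL14 each had 4 blocks in A549 replicate 1 alone. YTHDF1, the reader protein this study was built around, had 2, 2, 2 and 4 peaks and 0 of them had 3 or more blocks. KEAP1, the repressor of NRF2, had 6, 5, 3 and 0 peaks with at most 2 blocks, and NFE2L2, which encodes NRF2 itself, had 0, 3, 4 and 6 with at most 2. CDK2, CDK4, CCND1 and AKR1C1 had 0 multi-exon peaks in any list, and AKR1C1 had its 4 peaks, all of 1 block, in A549/DDP replicate 1. These genes thus had peaks within 1 or 2 exons or none. AKR1C2, an aldo-keto reductase next to AKR1C1, was the exception, with up to 6, 3, 4 and 5 blocks. Every list had a 3-block or longer peak near chr10:4989984-4995429 on the minus strand, and the replicate 1 lists had others, at chr10:5003866-5013345 in A549 and at chr10:5007408-5013395 and chr10:5013544-5017932 in A549/DDP. Genes of this cluster are nearly identical, so the gene these reads came from is uncertain.

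Along the gene, multi-exon peaks were spread more evenly than 1-block peaks. Each gene span in RefSeq, introns included, was divided into 5 equal parts, and the last part held the midpoint of 33.1% and 36.8% of the multi-exon peaks in A549 and of 29.5% and 30.8% in A549/DDP. For 1-block peaks it was 54.0% and 54.8% in A549 and 59.4% and 56.3% in A549/DDP. The differences were -20.9, -18.0, -29.9 and -25.5 percentage points, lower in 4 of 4 lists. Peaks with 2 blocks had 34.0% and 36.7% in the last part in A549 and 33.0% and 37.5% in A549/DDP, so the lower share there was common to all peaks that cross an intron. Multi-exon peaks were more frequent in the 3 middle parts, for instance with 17.0%, 16.2%, 18.4% and 19.8% in the central one beside 9.56%, 9.58%, 8.25% and 8.96%. The first part held the midpoint of 12.9% and 10.4% of them in A549 and of 13.2% and 11.2% in A549/DDP, beside 14.1%, 12.7%, 12.05% and 12.03% of 1-block peaks, which is lower in 3 of 4 lists. The count of peaks that reach the very start went the other way. Multi-exon peaks touched the first 50 transcribed bases of a RefSeq start in 7.02%, 7.94%, 5.61% and 6.05% of cases and 1-block peaks in 2.95%, 2.47%, 2.03% and 1.76%. Peaks with 2 blocks were close to the multi-exon peaks here as well, with 6.52%, 6.75%, 5.83% and 6.07%. The genes of multi-exon peaks were longer in every list, with medians of 35782, 29952, 43287 and 29159 bases of span beside 28410, 28204, 31366 and 21775 for 1-block peaks.

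Genes with multi-exon peaks had more input RNA than genes whose peaks all had 1 block. The median of their mean input FPKM was 22.6 in A549 replicate 1 and 36.0 in A549 replicate 2, beside 7.24 and 13.7. In A549/DDP it was 30.4 and 40.5, beside 11.5 and 18.9. The difference was positive in 4 of 4 lists, and genes are not replicates, so it was not tested. The share of genes with a peak that had a multi-exon one rose with the level in A549 replicate 1 from 10.7% at 1 to under 5 FPKM to 25.4% at 5 to under 20 and 33.7% at 20 to under 100, and was 30.8% at 100 and above. In A549/DDP replicate 1 it went from 14.5% to 31.4% and 45.1%, and then to 38%. In the replicate 2 lists it rose over all 4 classes, from 3.9% to 22.5% in A549 and from 7.38% to 27.3% in A549/DDP. Multi-exon peaks were thus scarce in weakly expressed genes, and the part of depth in this was not tested.

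Input RNA was compared between the lines with edgeR's quasi-likelihood test. Of the 3820 genes with a multi-exon peak in any list, 3685 passed the filter on low counts. Of these, 373 (10.1%) were higher in A549/DDP at an adjusted p under 0.05, beside 6.85% of all 16406 genes tested, and 522 (14.2%) were lower, beside 8.0%. Genes with peaks of 1 or 2 blocks only had 8.68% higher and 8.95% lower of 5667 tested. Their median input level was also lower, 11.6 FPKM in A549 beside 28.3 for the multi-exon genes, and its part in the shares was not tested. Of 117 tested genes with a multi-exon peak in all 4 lists, 10 were higher and 23 lower. The counts of 373 and 522 depended on the libraries and the method, as did the shares over all genes. With the second pair of A549 inputs they were 997 and 464 of 3614, beside 17.2% and 10.0% of all genes tested. Without a filter on low counts they were 596 and 810 of 3754, beside 8.06% and 9.54%. DESeq2 gave 598 and 774 of 3685, beside 12.3% and 13.8%. The counts also moved when a library was left out. Genes with a multi-exon peak in both A549 lists and neither A549/DDP list had 22 (22.7%) lower and 9 (9.28%) higher of 97 tested. Those with one in both A549/DDP lists alone had 39 (21.2%) lower and 16 (8.70%) higher of 184. Both groups thus had more genes that fell than rose, as did all genes tested. The higher shares were near the 9.25% of genes with any peak. These groups were not counted with the second pair of A549 inputs.

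Among genes with a multi-exon peak in at least 2 lists and a mean of at least 5 CPM (counts scaled to library size) over the 4 inputs, the 5 largest rises were CEACAM6, ASS1, LCN2 and 2 IDs without a symbol. CEACAM6, a cell adhesion glycoprotein, was at 3.5 and 4.75 FPKM in A549 and at 215 and 201.4 in A549/DDP (log2 change 5.60, SE 0.21, edgeR adjusted p = 0.000958). It had a 3-block peak in A549 replicate 1 at chr19:41755610-41761338, and others, further along the gene, in A549/DDP at chr19:41762172-41771125 and chr19:41762025-41770830. ASS1, the enzyme that makes argininosuccinate and so arginine, was at 25 and 30.6 FPKM in A549 and at 338 and 253 in A549/DDP (log2 change 3.83, SE 0.23, edgeR adjusted p = 0.00156). It had 4 blocks in both replicate 1 lists, at places that do not overlap, and no peak in the replicate 2 lists. LCN2, a secreted iron-binding lipocalin, was at 2.78 and 1.83 against 22.3 and 38.8 FPKM (log2 change 3.75), with 3 and 4 blocks in A549/DDP. In CEACAM6 and ASS1 multi-exon peaks were thus listed in both lines despite an RNA level that differed manyfold. ENSG00000259132, over the RefSeq genes HAUS4 and AJUBA, had 0 expected counts in both A549 inputs. It was at least 174-fold higher in A549/DDP against a floor of 3 counts per library, yet a 3-block peak was listed for it in A549 replicate 1. Expected counts are estimates and this ID shares its ground with named genes, so the size of its rise is uncertain. ENSG00000259132 did not pass the test against the second A549 pair, which also had 0 counts of it. ENSG00000144785, over CNPY2, was at 2.33 and 3.03 FPKM in A549 and at 54.5 and 32.8 in A549/DDP (log2 change 3.93, SE 0.71). The log2 change was 2.77 without A549/DDP replicate 1 and 4.56 without A549/DDP replicate 2. The log2 change turned to -0.34 with the second pair of A549 inputs, where 7.85 and 0 counts make it unreadable.

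The 5 largest falls under the same limits were NUPR1, TUFT1, AMOTL2, EPHA2 and an ID without a symbol. NUPR1, a stress-induced nuclear protein, was at 61.5 and 38.5 FPKM in A549 and at 0.95 and 1.83 in A549/DDP (log2 change -5.44, SE 0.50, edgeR adjusted p = 0.00352). Its 3-block peaks at chr16:28537435-28538585 and chr16:28537435-28538535 were in the A549 lists, and A549/DDP had no peak in this gene. TUFT1, the enamel protein tuftelin, was at 110 and 79.3 against 9.19 and 9.82 FPKM (log2 change -3.27) and likewise had 3-block peaks in both A549 lists and no peak in A549/DDP. AMOTL2, an angiomotin that links cell junctions to the Hippo pathway, was at 157 and 156 FPKM in A549 and at 17.9 and 13.7 in A549/DDP (log2 change -3.26, SE 0.17, edgeR adjusted p = 0.00156). The same peak of 4 blocks and 1995 bases, at chr3:134356173-134360108 on the minus strand, was in both A549 lists with scores of 4e-15 and 2e-05, and 3-block peaks of 1298 and 350 bases were in the A549/DDP lists, the latter at chr3:134361805-134366536, outside the A549 peak. EPHA2, an ephrin receptor kinase, was at 266 and 201.97 against 55.8 and 26.4 FPKM (log2 change -2.96) and had 3, 4, 3 and 4 blocks. ENSG00000282034, over SRCAP and TMEM265, was at 0 FPKM in both A549/DDP inputs and at least 551-fold lower there against the same floor. It had 3 blocks in both replicate 1 lists. This ID also shares its ground with named genes, so the size of its fall is uncertain. Of the falling genes, NUPR1 and TUFT1 thus had peaks in A549 alone, and AMOTL2 and EPHA2 had a multi-exon peak in each of the 4 lists, not always at the same place.

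Some multi-exon peaks lay on the ground of several genes. Of those in each list, 3.57% and 2.79% in A549 and 4.87% and 3.84% in A549/DDP shared a base with a multi-exon peak listed under another gene. Symbols of readthrough loci, which join neighbouring genes, belonged to 42, 13, 46 and 19 of all multi-exon peaks in the lists, and 121, 56, 154 and 49 had an ID without a symbol. For these peaks the gene is uncertain.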

How the data were processed

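Per the labels, m6A-seq and input RNA were sequenced from A549 and A549/DDP cells, with 2 libraries for each line and assay. There are 2 further A549 inputs with labels that name no experiment, and they entered only as an alternative. For the A549 m6A-seq libraries, replicate numbers follow the labels, which number them the other way round from the file names. Each deposited peak list gave position, blocks, strand, gene ID and a score for each peak and was called by the authors for 1 library. What the deposited score measures, the peak caller and its threshold are not given in the sources used here. The deposited input tables gave each gene's expected counts, TPM and FPKM, where expected counts are estimates that need not be whole and TPM and FPKM are scaled for length and library size. The submitters' processing notes name STAR, RSEM, bedtools and hg38. Total expected counts were 35286514 and 34570074 for A549, 29225501 and 33971561 for A549/DDP, and 855034 and 982036 for the second pair, of which 75.2% and 73.9% were mitochondrial.

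Peaks with a block count of at least 3 were set beside those with 1. Positions were counted from 1. Overlap needed at least 1 base on the same strand within blocks. Symbols were matched by Ensembl ID, for 56993 of 58037 IDs in the input tables. Gene spans were those of RefSeq on GRCh38.p14, matched by symbol for 92.2% to 95.3% of multi-exon peaks, and the part of the gene was read for peaks inside the span. Start sequences were matched for 3002 of 3818 symbols and IDs with a multi-exon peak. After rounding of the expected counts to integers, genes passing filterByExpr (16406) were compared by the quasi-likelihood test of edgeR 4.0.16 in R 4.3.3, with TMM factors and Benjamini-Hochberg adjustment, which was tested on simulated data. The standard error of a log2 change is its size over the root of F. Replicates differed beyond sampling noise. Other steps used scipy 1.17.1, pandas 2.3.3 and numpy 2.4.6 in Python 3.11.15, and matplotlib 3.10.9 for plots. DESeq2 1.42.0 was an alternative. Others were a score threshold of 1e-05 or 1e-10, blocks of at least 10 bases, blocks closer than 30 bases joined, 50% overlap, size classes, 1 peak for each gene, TPM, no filter on counts, a replicate block and leaving out each replicate.

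Named genes were the 8 regions in all 4 lists with the most blocks, ties ordered by summed size; the peak with the most blocks in each list; the 5 most abundant genes with a multi-exon peak in both lists of one line alone; among genes with such a peak in at least 2 lists, the 5 that rose most and the 5 that fell most with an adjusted p under 0.05, a mean of 5 CPM or more over the 4 inputs and 1 direction in both same-numbered pairs; list members found in all 4 lists; and genes the study names. Further list members were named after their values were seen. Members and gene lists were chosen with earlier results of these data known.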

Additional observations from a re-analysis of the deposited data

Results flagged for a closer look

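The difference in recurrence between multi-exon and 1-block peaks went in opposite directions in the lines for several measures, and in no case was this tested. For peaks met in all 3 other lists, both A549 lists had more multi-exon than 1-block peaks (6.17 and 13.9 percentage points) and both A549/DDP lists had fewer (-0.393 and -11.5), so that A549/DDP minus A549 was -15.9. For peaks met in no other list it was the other way round, with -8.31 and -2.85 in A549 and 4.47 and 5.29 in A549/DDP, a contrast of 10.5. With an overlap of at least 50% of the peak in each other list the differences were 0.710 and 6.06 against -4.29 and -17.7, a contrast of -14.4. Within size classes the signs were also opposite under 150 bases (0.400 and 3.77 against -0.849 and -14.5, contrast -9.74), at 400 to under 700 bases (0.269 and 7.85 against -12.7 and -21.1, contrast -20.9) and at 700 bases or more (3.04 and 16.0 against -17.2 and -17.7, contrast -27.0). They were not opposite in the other 2 classes, where A549 replicate 1 was below 0 as well, with -0.874 at 150 to under 250 bases and -3.68 at 250 to under 400, nor for peaks met in the replicate of the same line, with 1.30 and 1.85 in A549 and 3.64 and -0.525 in A549/DDP. Several of these differences are close to 0 in 1 library.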

How the results depend on the processing

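Differences that kept their direction under every alternative tried were the higher share of multi-exon peaks in A549/DDP (1.02 to 5.33 points when a list was left out), the larger summed size, the lower share in the last part of the gene (-25.4 to -21.5 without 1 list, an alternative chosen after seeing the data) and the higher input level, which was 30.3 in TPM beside 19.6 in FPKM. The mean difference in the share past the score of 1e-05, -1.61 points, became 0.746 at 1e-10 and 0.357 with the longest peak of each gene. The mean recurrence difference in all 3 other lists was 10.0 points in A549 and became 3.39 with 50% overlap, 3.78 with scores at or below 1e-05 and 2.86 by size class. In A549/DDP it was -5.93 and became -15.9 by size class and -14.6 to -4.02 without 1 list, and 0.0996 with scores at or below 1e-05. The cause of these shifts was not tested.

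Genes past the edgeR threshold were 2437 (1124 higher, 1313 lower). They were 4278 (2011, 2267) with DESeq2, 4010 (1836, 2174) without a filter beyond 1 count, and 3758 (2371, 1387) with the second A549 pair, where the median log2 change of all genes was 0.79. Leaving out a library gave 2052 to 3809 (788 to 1731 higher, 1164 to 2078 lower), where the lone library of a line is assumed to vary like those of the other line. Genes with a multi-exon peak were 598 higher with DESeq2, 596 higher and 810 lower without the filter, 997 higher with the second pair, and 215 to 576 higher and 334 to 831 lower without 1 library. With the replicate block, 3536 genes passed (1633 higher, 1903 lower; 540 and 717 with a multi-exon peak). Deviations of libraries with the same number correlated at 0.021, so replicate numbers are shared without being shown to pair the libraries. Of the named changes in input RNA, that of ENSG00000144785 turned to -0.34 with the second pair, where it had only 7.85 and 0 counts. The other changes tried with that pair kept their direction, whereas EEF1G, HNRNPA1, RPL12, NCL and RPL37 were not tried. EPHA2 moved from -2.96 to -1.68, AARS1 from -2.26 to -0.57, TUFT1 from -3.27 to -2.35 and YTHDC1 from -2.26 to -1.52. OS9 moved from 0.79 to 1.66 and NUPR1 from -5.44 to -6.32. ENSG00000282034 did not pass the filter on low counts there. CEACAM6 and LCN2 had 0 counts and ASS1 at most 1 in that pair, so the size of their rise cannot be read from it. Counts in that pair were also low for OS9 (20.45 and 12), TUFT1 (11 and 13) and NUPR1 (10 and 9). Counts of 2 lists a line limit every comparison of the lines.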
